A study of Mus musculus with 4 samples.

Results

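The lost intergenic regions were stretches of chromatin between genes that had an accessibility peak in both Control libraries and in neither Snf5 CKO library. Peaks of 4 ATAC-seq libraries on chromosomes 1 to 19 were merged wherever they overlapped by at least 1 bp. A merged region was a member when it overlapped no RefSeq protein-coding gene of the mm10 build and lay over 1 kb from every protein-coding gene start and end. Of 62815 merged regions, 1692 were members. They made up 6.52% of the 25957 intergenic regions and 23.5% of the 7208 intergenic regions with a peak in both Control libraries. Over all places, genes included, 4897 of 26580 regions with a peak in both Control libraries were lost, or 18.4%. The members were chosen by presence and absence of a peak in each library, so their counts and Control values are descriptions and no test was made on them.

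The Snf5 CKO libraries, numbered 1 and 2, came from female C57BL/6 germ cells at embryonic day 15.5 with a conditional knockout of Snf5. The Control libraries, also numbered 1 and 2, came from germ cells of the same strain, sex and stage with the genotype Control. All 4 libraries came from cells sorted by an Oct4-EGFP reporter. The Cre driver, the floxed allele, any pooling of embryos, and whether replicates came from separate animals are not stated in the labels, so the spread between replicates may be technical.

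ATAC-seq uses a transposase that cuts and tags DNA where nucleosomes leave it exposed. Snf5, the product of Smarcb1, is a core subunit of SWI/SNF complexes, which spend ATP to slide or evict nucleosomes. Open chromatin far from promoters often holds enhancers, where transcription factors bind and SWI/SNF complexes are known to act. At this stage female germ cells of the mouse ovary are in meiotic prophase and have left the pluripotent programme of primordial germ cells.

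The Snf5 CKO libraries held 42761 and 26900 peaks on these chromosomes, against 37933 and 34979 in the Control libraries, and 22.9 and 16.0 Mb were covered, against 26.3 and 24 Mb. Snf5 CKO 2 had the shortest list. Read depth is unknown, and absence of a peak does not show that chromatin was closed, only that no peak was called. Smarcb1 had no peak at its gene ends in either Snf5 CKO library and had 1 in each Control library. Ends of germ cell markers (Ddx4, Dazl, Pou5f1, Dppa3, Mael and Sycp3) carried a peak in 6 of 6 genes in every library. Other cell types were checked in the order Snf5 CKO 1, Snf5 CKO 2, Control 1, Control 2. Peaks stood at 5, 5, 5 and 5 of 6 supporting cell markers, at 3, 1, 4 and 4 of 5 stromal markers, at 1, 1, 2 and 2 of 4 endothelial markers and at 1, 1, 1 and 1 of 3 blood markers. The stromal and endothelial counts were lower in the Snf5 CKO libraries, and the part of these cells in the lost regions was not tested. Of the stromal markers, only Wnt5a had a peak in both Control libraries and in neither Snf5 CKO library. Nr2f2 and Tcf21 lacked one in Snf5 CKO 2 alone. No endothelial marker had the Wnt5a pattern: Pecam1 had a peak in Control 1 alone and Tek in Control 2 alone. Over all 20665 protein-coding genes, 635 had an end peak in both Control libraries only and 38 in both Snf5 CKO libraries only. In bulk samples, fewer cells of a type and less opening per cell cannot be told apart.

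Among the members, 3 held microRNA genes, and these are shown because the transcribed product lies wholly inside the lost region. Their share of members, 0.177%, was below the 0.264% of all intergenic regions with a peak in both Control libraries (19 of 7208). MicroRNAs are short RNAs that pair with messenger RNAs mainly through the seed, bases 2 to 8, which is printed in capitals. The sequences are from RefSeq GRCm38.p6, the primary assembly of mm10, read 5′ to 3′. Mir375, known from pancreatic islets, lay on the minus strand at chr1:74900658-74900721 inside a member of 514 bp. Mir129-2 and Mir129b lay on opposite strands at chr2:94241364-94241453 and chr2:94241378-94241442 inside a member of 650 bp. Mir137, known from neurons, lay on the plus strand at chr3:118433857-118433929 inside a member of 623 bp. No 2 of the 7 mature sequences listed shared a seed. For Mir375 only the 5p sequence was listed in the source, so the product of its other arm is not shown.
mmu-miR-375-5p: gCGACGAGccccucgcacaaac
mmu-miR-129-2-3p: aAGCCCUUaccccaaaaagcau
mmu-miR-129-5p: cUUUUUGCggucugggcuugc
mmu-miR-129b-5p: gCUUUUUGggguaagggcuucc
mmu-miR-129b-3p: cAAGCCCAgaccgcaaaaagauu
mmu-miR-137-5p: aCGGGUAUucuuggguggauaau
mmu-miR-137-3p: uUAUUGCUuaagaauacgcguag

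The region over Mir375 had a fold enrichment of 3.16 in Control 1 and 3.29 in Control 2. It lay 1.1 kb from Cfap65, and the nearest Snf5 CKO peak was 7.25 kb away. The Mir129-2 region had folds of 2.49 and 3.19 in Control 1 and Control 2, with a Snf5 CKO peak only 1.22 kb away. The Mir137 region had folds of 2.73 and 3.67, and the nearest Snf5 CKO peak was 128 kb away. All 3 regions were weak peaks: with a −log10 q of at least 3 required in every library, none of them was lost. Without Control 1, no lost intergenic region overlapped the Mir137 hairpin, so the hairpin lay in its member through the Control 1 peak.

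Long noncoding RNA (lncRNA) genes were the commonest annotation under the members, since the rule excluded protein-coding genes only. A lncRNA gene overlapped 413 of 1692 lost regions (24.4%), against 12.2% of gained and 18.1% of kept intergenic regions. Among all 7208 intergenic regions with a peak in both Control libraries, the share was 20.4%. Gained means a peak in both Snf5 CKO libraries and neither Control library, and kept means a peak in all 4. Any noncoding gene or pseudogene overlapped 500 members (29.6%), against 16.2% of gained and 25.5% of kept regions. The share was close to this, 27.2%, over all intergenic regions with a peak in both Control libraries. Transfer RNA genes went the other way. They overlapped 0 of 1692 members, a count that allows a share of up to 0.177%, against 19 of 1885 gained and 77 of 4239 kept regions. Of all 7208 with a peak in both Control libraries, 81 (1.12%) overlapped one.

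RefSeq promoter windows, 250 bases before to 50 after a transcript start, were used to see where lncRNA starts fell. That table is not complete, and 1649 members lay on chromosomes it covers. A lncRNA window overlapped 72 of these members (4.37%), against 1.31% of gained and 5.29% of kept regions. A window that overlapped a region in part, such as Gm40094 with 13 bases inside, counted as in it, and all 300 bases were read. The 75 windows in members had a median GC content of 52.3% and a median CpG observed over expected ratio of 0.446. Windows in kept regions were richer in CpG, at 57.3% GC and a ratio of 0.646, while the 24 in gained regions had 52% GC and a ratio of 0.317 and all 9533 lncRNA windows had 48.3% GC and a ratio of 0.247. A ratio over 0.6, a usual mark of CpG islands, was found in 15 of the 75 windows in lost regions, in 6 of the 24 in gained regions, in 55.2% of those in kept regions and in 14.4% of all lncRNA windows.

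The windows of 3 lncRNA genes are shown as examples of starts inside lost regions. LOC102640059 had the highest fold in the weaker Control library, and Pantr2 and Mir1a-1hg were chosen after their values were seen. Capitals mark matches, on either strand, to the motifs named here. The letters searched were AGGTCA for a nuclear receptor half-site, GCCNNNGGC for TFAP2, TTGGCA for an NFI half-site, CAGCTG for an E-box, CCAAT for the CCAAT box and GTTGCC for an RFX half-site. TTGGCA can overlap the reverse of CCAAT by 4 bases, as it does in the Pantr2 window. LOC102640059 spans chr14:31929315-31929614 on the plus strand. Pantr2 spans chr1:42713405-42713704 on the minus strand and is transcribed next to Pou3f3, a neural transcription factor gene. Mir1a-1hg spans chr2:180385354-180385653 on the plus strand and is the host transcript of a heart and muscle microRNA. The LOC102640059 and Pantr2 windows lay wholly inside their members. Of the Mir1a-1hg window 235 bases lay inside, and its RFX match lay before the member began.
LOC102640059: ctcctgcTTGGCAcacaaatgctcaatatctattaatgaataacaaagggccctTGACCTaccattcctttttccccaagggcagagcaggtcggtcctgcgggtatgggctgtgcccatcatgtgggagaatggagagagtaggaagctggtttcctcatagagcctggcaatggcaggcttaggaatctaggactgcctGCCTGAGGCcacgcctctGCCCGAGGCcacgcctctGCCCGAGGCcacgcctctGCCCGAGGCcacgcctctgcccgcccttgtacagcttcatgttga
Pantr2: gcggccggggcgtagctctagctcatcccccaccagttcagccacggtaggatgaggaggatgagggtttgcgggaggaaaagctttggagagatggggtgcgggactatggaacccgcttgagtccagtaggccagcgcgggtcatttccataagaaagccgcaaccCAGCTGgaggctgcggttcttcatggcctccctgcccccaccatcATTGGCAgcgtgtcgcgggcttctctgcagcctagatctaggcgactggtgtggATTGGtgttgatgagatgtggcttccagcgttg
Mir1a-1hg: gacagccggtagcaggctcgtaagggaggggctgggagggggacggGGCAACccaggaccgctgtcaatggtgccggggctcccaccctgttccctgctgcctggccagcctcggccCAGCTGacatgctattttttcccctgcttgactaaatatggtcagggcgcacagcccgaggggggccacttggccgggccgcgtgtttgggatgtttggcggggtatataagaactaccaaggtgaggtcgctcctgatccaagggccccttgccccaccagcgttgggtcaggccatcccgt

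The member at LOC102640059 was 826 bp wide, lay 98.6 kb from Ankrd28 and had folds of 5.23 in Control 1 and 4.58 in Control 2. The Pantr2 member was 753 bp wide, lay 12.9 kb from Pou3f3 and had folds of 3.79 and 3.81, with a Snf5 CKO peak 0.803 kb away. The Mir1a-1hg member was 1421 bp wide and lay 49.9 kb from Gata5, with folds of 2.95 and 3.91. The E-box CAGCTG was found in 18 of the 75 windows in lost regions (24%), in 23 of the 230 in kept regions, in 18% of all lncRNA windows and in 16.2% of all 27025 windows. The nuclear receptor half-site was found in 16.0% of windows in lost regions, 13.5% in kept regions and 19.1% of all lncRNA windows. TFAP2 letters were in 10.7% of windows in lost regions, against 20.4% in kept regions and 10.7% of all lncRNA windows. The CCAAT box was in 26.7% of windows in lost regions, against 39.1% in kept regions and 35.6% of all lncRNA windows. NFI and RFX half-sites were in 13.3% and 10.7% of windows in lost regions, against 13.0% and 11.7% in kept regions and 16.1% and 12.5% of all lncRNA windows. A match is a description of letters and not a bound site.

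Members were moderate peaks in both Control libraries. Fold enrichment over the local background, the authors' value for each peak, ran from 1.97 to 6.98 with a median of 3.56 in Control 1, and from 1.95 to 6.63 with a median of 3.53 in Control 2. The middle of the distribution lay at 3.13 to 4.09 in Control 1 and at 3.19 to 3.97 in Control 2 (lower to upper quartile). Neither library was the stronger throughout: the fold was higher in Control 1 in 852 of 1692 members. Across members the folds of both libraries had a Pearson r of 0.572 and a Spearman rho of 0.576 (n = 1692 regions of the same 2 libraries, a description). Peaks were wider in Control 1, with a median of 451 bp under peaks against 356.5 bp in Control 2, and Control 1 had more peak bases in 1094 members and fewer in 588.

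**Figure D1:**
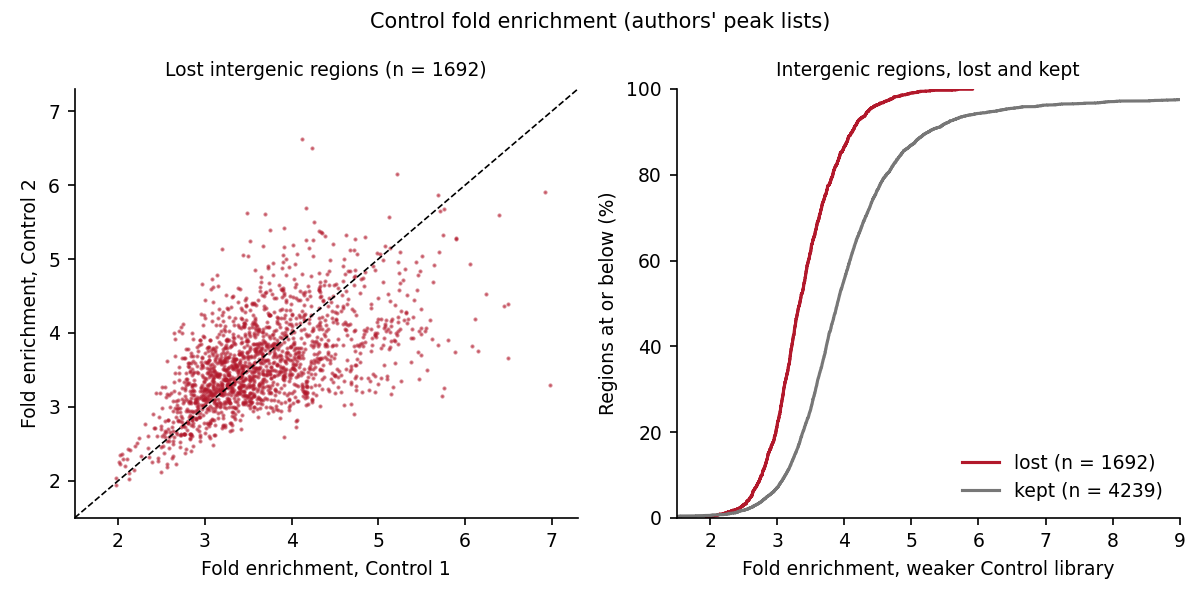
Fold enrichment of intergenic regions in the Control libraries. Left, each point is 1 of 1692 lost regions, with Control 1 on the x axis and Control 2 on the y axis, and the dashed line marks equal folds. Right, the share of lost and kept regions at or below each fold in their weaker Control library, with the x axis ended at 9. Lost regions spread on both sides of the line and had lower folds than kept regions, with medians of 3.34 and 3.90.

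Lost regions were weaker than kept ones in the same Control libraries. The fold in the weaker Control library had a median of 3.34 in lost and 3.90 in kept regions, and the −log10 q a median of 2.52 and 4.03. The merged region had a median width of 537 bp in lost, 442 bp in gained and 790 bp in kept regions, where it spans peaks of all 4 libraries and not of 2, so these widths are not on equal terms. A −log10 q of at least 3 in both Control libraries was reached by 584 members (34.5%), and one of at least 10 by 2. The share lost was lower at higher Control folds. It was 44.1% of the 829 regions with a weaker-Control fold up to 3, 36.7% at 3 to 3.5, 19.7% at 3.5 to 4, 11.6% at 4 to 5 and 2.68% of the 596 regions over 5. Together the members covered 0.988 Mb, and 29 of them held more than 1 peak of a Control library.

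Few members lay beside a Snf5 CKO peak, in part because the rule leaves out every region that touches one. The same distances were not computed for other regions. The nearest peak of either Snf5 CKO library lay a median of 11.9 kb away, and 48 members (2.84%) had one within 500 bp. For Snf5 CKO 1 alone the median was 12.6 kb, and for Snf5 CKO 2, the shorter list, 19.4 kb. No Snf5 CKO peak lay within 50 kb of 196 members (11.6%). The nearest region kept in all 4 libraries, at any place, was a median of 25.5 kb away. Intergenic regions with a peak in both Control libraries and in Snf5 CKO 1 alone of the knockouts numbered 1094, against 183 for Snf5 CKO 2 alone. A peak in the longer list of Snf5 CKO 1 thus kept more regions out of the membership than one in Snf5 CKO 2. The number of lost intergenic regions was 2790 without Snf5 CKO 1 and 1876 without Snf5 CKO 2, and 3381 without Control 1 and 5358 without Control 2.

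Intergenic places took a larger share of lost regions than of kept ones and a smaller share than of gained ones. Of 4897 lost regions, 815 (16.6%) lay within 1 kb of a gene start or end, 2390 (48.8%) inside genes and 1692 (34.6%) between genes. Gained regions were intergenic in 60.4% of 3122 cases and kept regions in 23.0% of 18408.

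Members lay nearer to genes than gained or kept intergenic regions. The distance to the nearest protein-coding gene had a median of 19.1 kb in lost regions, 39.9 kb in gained and 38.6 kb in kept ones. The quartiles were 8.2 and 50.0 kb in lost regions, 12.2 and 159 kb in gained and 11.3 and 174 kb in kept regions. Within 5 kb of a gene were 234 members, at 5 to 10 kb 277, at 10 to 50 kb 758, at 50 to 100 kb 218, at 100 to 500 kb 190 and beyond 500 kb 15. Far from genes, beyond 500 kb, lay 0.887% of lost, 9.66% of gained and 9.41% of kept regions.

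**Figure D2:**
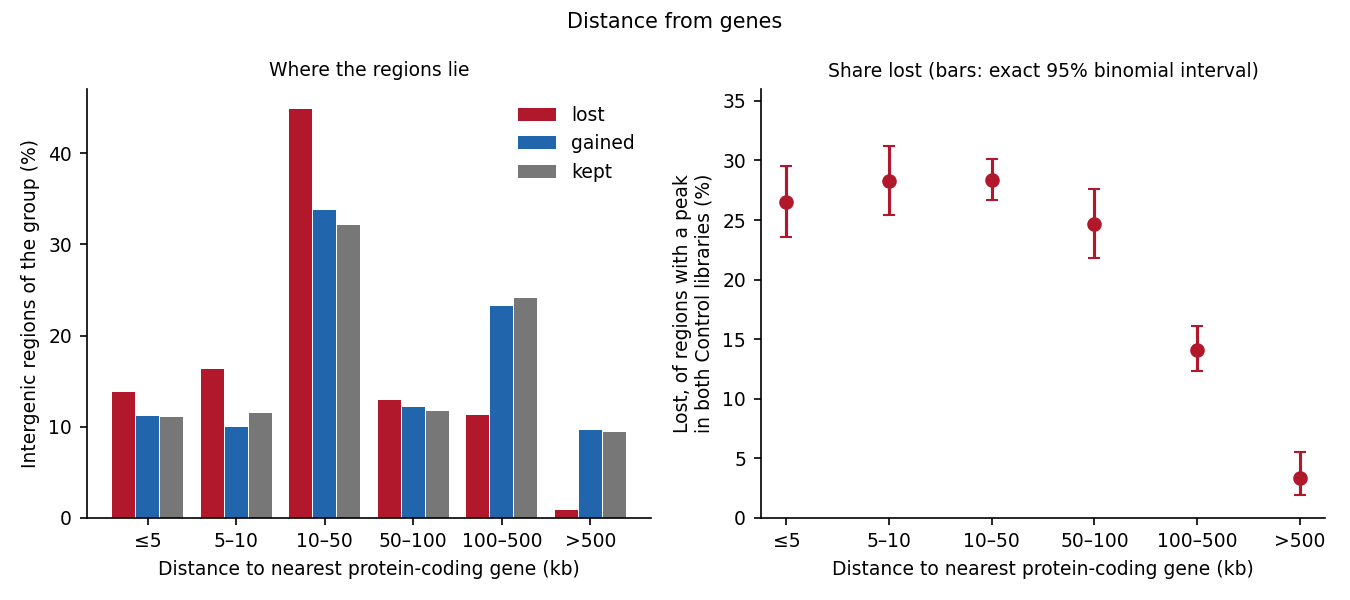
Distance of intergenic regions from the nearest protein-coding gene. Left, the percentage of lost, gained and kept regions in each distance bin. Right, the share lost among intergenic regions with a peak in both Control libraries, with exact 95% binomial intervals that cover counting error only. The share stayed between 24.6% and 28.4% up to 100 kb and was 14.1% at 100 to 500 kb and 3.36% beyond.

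Seen as a share of intergenic regions with a peak in both Control libraries, loss was 26.5% (95% Clopper-Pearson interval 23.6 to 29.5) within 5 kb, 28.3% (25.5 to 31.2) at 5 to 10 kb and 28.4% (26.7 to 30.2) at 10 to 50 kb. It was 24.6% (21.8 to 27.6) at 50 to 100 kb, 14.1% (12.3 to 16.1) at 100 to 500 kb and 3.36% (1.89 to 5.49) beyond 500 kb. Up to 50 kb, 1269 of 4532 regions were lost (28.0%), against 423 of 2676 (15.8%) farther out, a split chosen after the values were seen. Peak strength also changed with distance: regions beyond 50 kb were 155 of 829 at a weaker-Control fold up to 3 and 257 of 596 above 5. The shares were therefore set out within bands of fold. Up to 50 kb and beyond, 46.3% and 34.8% were lost at a weaker-Control fold up to 3, 39.8% and 30.5% at 3 to 3.5, 25.2% and 12.1% at 3.5 to 4, and 13.8% and 8.64% at 4 to 5. Above a fold of 5 the order was not seen, with 2.36% of 339 regions up to 50 kb and 3.11% of 257 beyond. The exact 95% intervals overlapped in this band and, at 42.5 to 50.1 against 27.4 to 42.9, also at a fold up to 3, and were apart in the other bands.

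Members lay on both sides of their nearest gene in similar numbers. For the 1341 members whose nearest gene has a strand in the RefSeq windows, 52.7% (95% Clopper-Pearson interval 50.0 to 55.4) lay upstream of the gene and the rest downstream. The share upstream was 51.8% in gained and 50.9% in kept regions. The median distance was 19.7 kb upstream and 17.8 kb downstream for lost regions, against 37.7 and 40.3 kb for gained and 41.5 and 31.0 kb for kept ones.

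The members had 1378 nearest protein-coding genes, 6.67% of the 20665 on these chromosomes and 31.8% of the 4339 genes nearest to an intergenic region with a peak in both Control libraries. The ends of most of these genes stayed open in the knockout. Of the 1378, 932 (67.6%) had a peak within 1 kb of an end in all 4 libraries, 57 (4.14%) in both Control libraries only and 248 (18%) in no library. Among all 20665 genes the shares were 56.0%, 3.07% and 32.5%, and among the 2857 nearest genes of kept intergenic regions 58.5%, 2.98% and 28.8%. Most genes were nearest to a single member: 1140 had 1, 187 had 2, 35 had 3 and 16 had 4 or more.

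Ajap1, which encodes a protein of adherens junctions, had the most members, 8, at 74.7 to 291 kb from the gene on chromosome 4. They lay on both sides of it. The strongest, at 197 kb (chr4:153175556-153176226), had folds of 5.63 in Control 1 and 4.69 in Control 2, and the weakest, at 183 kb, 2.57 and 3.62. A Snf5 CKO peak lay 0.242 kb from the member at 148 kb and 3.29 kb from the one at 122 kb, and the other members were at least 10.9 kb from one. Ajap1 was itself open at its ends in all 4 libraries, and 2 kept intergenic regions also had it as nearest gene. The first rank did not hold under other settings: Ajap1 had 3 members when peaks below a −log10 q of 3 were dropped, against 4 each at B3glct and Hmgb1, 3 with lists of equal length, against 5 at B3glct, and 0 with genes of any type. Zfp516 had 8 against 6 at Ajap1 with peaks up to 500 bp apart merged, 11 against 10 without Snf5 CKO 1, 13 against 8 without Control 1 and 22 against 12 without Control 2.

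Emx2, a homeobox gene required for development of the urogenital system, had 5 members and no kept intergenic region. The region at 15.2 kb (chr19:59442651-59443456) had folds of 3.69 in Control 1 and 3.77 in Control 2. The one at 49.8 kb had 3.52 and 3.40, and the one at 76.6 kb on the other side 3.44 and 3.67. Both regions close to the gene were weaker, with folds of 2.63 and 2.73 at 6.67 kb and 2.67 and 2.23 at 2.92 kb. The closest Snf5 CKO peak was 6.44 to 60.4 kb from these regions. A peak within 1 kb of an end of Emx2 was called in all 4 libraries. At the start itself, a peak was called in both Control libraries and Snf5 CKO 1 but not in Snf5 CKO 2. The peak of Snf5 CKO 2 lay 0.73 to 1.13 kb into the gene.

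Ctnnb1, which encodes β-catenin, the transducer of canonical Wnt signalling, had 5 members, all upstream, and no kept intergenic region. From the far to the near end, their folds were 3.97 in Control 1 and 4.90 in Control 2 at 155 kb, 3.20 and 4.16 at 99 kb, and 3.48 and 3.14 at 52.0 kb. The last of them had folds of 4.07 and 3.42 at 39.5 kb and of 2.86 and 3.21 at 10.2 kb. No region of any place was kept in all 4 libraries within the 146 kb that they span. A region in this stretch did have a peak in both Control libraries and in Snf5 CKO 2, with a fold of 3.14 there. The nearest Snf5 CKO peak was 3.91 kb from the member closest to the gene and 20.1 to 76.4 kb from the others.

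Sox2, a transcription factor of pluripotent cells and primordial germ cells, had 4 lost and 5 kept intergenic regions. Folds of the lost regions were 3.25 in Control 1 and 4.34 in Control 2 at 74.1 kb upstream, 3.72 and 3.47 at 24.5 kb upstream, and 3.02 and 3.38 at 7.12 kb upstream. The member downstream, at 57.2 kb, had 3.99 and 3.82. All 4 overlapped a lncRNA gene. Lost and kept regions were interleaved along the locus, and a Snf5 CKO peak lay 0.308 kb from the farthest upstream member.

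**Figure D3:**
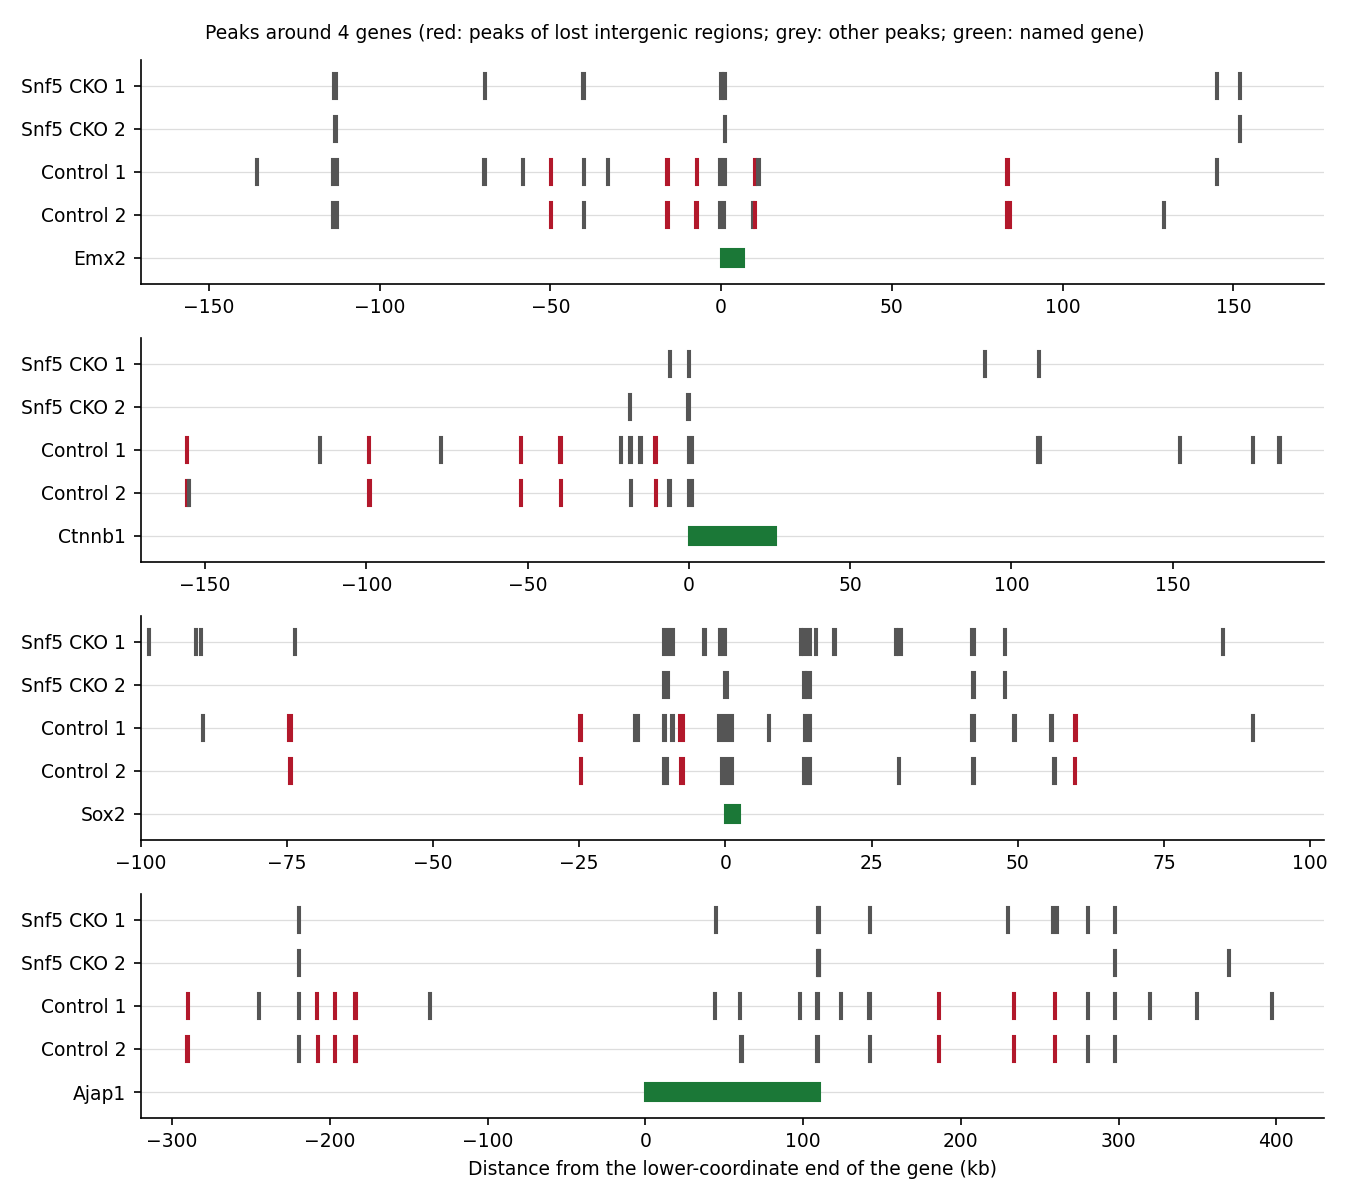
Peaks of the 4 libraries around Emx2, Ctnnb1, Sox2 and Ajap1, with Snf5 CKO libraries above Control libraries. The x axis is the distance in kb from the lower-coordinate end of the gene, drawn as a green bar. Red bars are Control peaks of lost intergenic regions, of which 5, 5, 4 and 8 have these genes as nearest gene, and grey bars are other peaks. Short peaks are drawn at a minimum width.

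Zfp516, a zinc finger gene on chromosome 18, had 7 members between 16.8 and 417 kb and 4 kept intergenic regions. The remaining 12 genes with 4 members each were Atp23, B3glct, Ccdc91, Dynlt1b, Gm9376, Hmgb1, Plxna2, Rragc, Setd4, Sox2, Ubl3 and Zfp64. Plxna2, a semaphorin receptor gene, held 2 of the extreme members. One at 584 kb was the widest of all, 1453 bp, with folds of 3.91 in Control 1 and 4.20 in Control 2, and the nearest Snf5 CKO peak was 187 kb away. The other at 113 kb had folds of 5.50 and 5.04. Of these 16 genes, 14 had open ends in all 4 libraries, Gm9376 in none and Zfp64 in another pattern. Dynlt1b belongs to a group of near-identical gene copies, so reads there may be shared between copies.

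Some members came in runs. With gaps of up to 100 kb, 711 of 1692 members (42.0%) stood in 289 clusters and 981 stood alone. Clusters held 31.4% of the 1885 gained regions and 42.3% of the 4239 kept regions, groups of other sizes, so these shares are not on equal terms. There were 206 clusters of 2, 51 of 3, 18 of 4, 10 of 5 and 4 of 6. The 32 clusters of 4 or more held 146 members over 4.45 Mb, with 35 kept and 8 gained intergenic regions between them, and 27 of them held no gained region.

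Each of the 4 clusters of 6 members had its own setting. On chromosome 15, 128 kb around the tubulin genes Tuba1a and Tuba1c, the intermediate filament gene Prph and Dnajc22 held 6 members with weaker-Control folds of 2.67 to 3.79, beside 2 kept intergenic regions. On chromosome 14, 144 kb around Sox21, a SoxB transcription factor gene, and Gm9376 held 6 with folds of 1.95 to 4.28 and no kept intergenic region. On chromosome 5, 188 kb around Katnal1, Hmgb1 and Uspl1 held 6 with folds of 2.75 to 3.77 and 4 kept regions. On chromosome 13, 249 kb between the kinase gene Map3k1 and Ankrd55 held 6 wide members of 729 to 1118 bp with folds of 3.19 to 3.74 and 1 kept region.

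Of the 10 clusters of 5, one lay in a family of related genes. The HoxC cluster on chromosome 15, genes that pattern the body axis, held 5 members nearest to Hoxc13, Hoxc10, Hoxc8 and Hoxc4, with low weaker-Control folds of 2.05 to 2.91. Counting regions at and inside genes, 11 regions were lost there and 3 were kept. Other clusters of this size lay around Ajap1, around Emx2, around Ctnnb1, and around the zinc finger gene Gata5 with Slco4a1 and Ntsr1. Further ones were Ubl3 with Katnal1, Rpl21 with Rasl11a, Mtif3 and Lnx2, the vascular receptor gene Flt1 with Pomp, Slc46a3 and Mtus2, and Hmcn1 with 3110040M04Rik and Ivns1abp. The Gata5 cluster held the member that was second in width, 1421 bp.

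The 18 clusters of 4 spanned 66.8 to 221 kb. On chromosome 19 they included the homeobox genes Vax1, with Kcnk18, and Tlx1 and Lbx1, with Btrc, and also Pax2 with Hif1an. Etv4, Meox1 and Sost on chromosome 11 had weaker-Control folds of 3.16 to 5.09. Sox2, Setd4, Dynlt1b, B3glct, Zfp64 and Atp23 each stood alone as nearest gene of a cluster. Others were Baiap2l1 with Nptx2, Tnfaip2 with Gm266 and Eif5, Zfp236 with Zfp516, Stk24 with Slc15a1, and Bach1 with Grik1. The cluster of Hrh1 and the autophagy gene Atg7 was the faintest, with folds of 1.97 to 2.12. Around Fcgr1, BC107364 and Polr3gl, 8 kept and 4 gained intergenic regions lay among the 4 lost ones. Gm21188, Gm20767, Gm21818 and AF067061 formed the last, with folds of 2.01 to 3.32.

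The share lost of intergenic regions with a peak in both Control libraries ran from 18.3% to 34.3% over the chromosomes. The intervals treat regions as independent, though some members stand in clusters. Control fold and distance from genes were not held equal. Chromosome 19 had the highest share, 61 of 178 (34.3%, 95% Clopper-Pearson interval 27.3 to 41.7), followed by chromosome 11 with 120 of 371 (32.3%, 27.6 to 37.4) and chromosome 5 with 146 of 476 (30.7%, 26.6 to 35). Chromosome 18 had the lowest, 43 of 235 (18.3%, 13.6 to 23.8). Counted by windows of 1 Mb, the densest lay on chromosome 5 around Hmgb1, Alox5ap, Medag and B3glct, where 12 of 25 regions were lost.

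**Figure D4:**
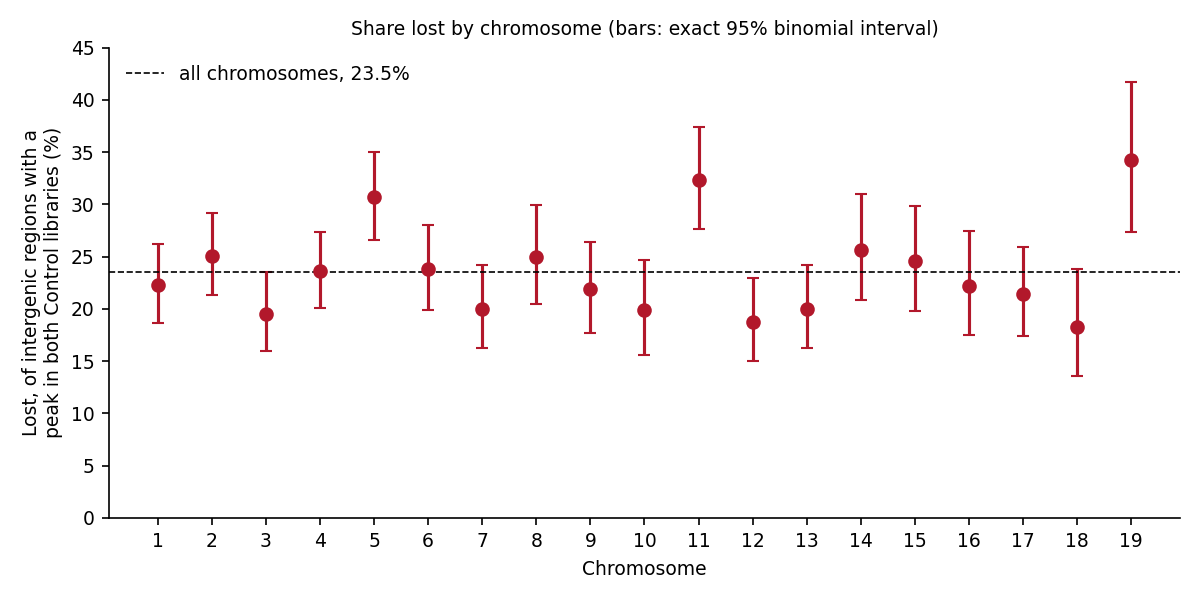
Share lost among intergenic regions with a peak in both Control libraries, by chromosome on the x axis, with exact 95% binomial intervals. The dashed line is the share over all 19 chromosomes, 23.5%. Chromosomes 5, 11 and 19 had intervals wholly above the line, and chromosome 12 had one wholly below it.

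The 20 members with the highest fold in their weaker Control library were spread over 13 chromosomes, and 14 of them stood alone. They lay next to Ap1s3, Rbm19, Pcdh1, Tmprss2, Mctp2, Apob, Drd1, Ino80, Prlhr, Mki67, Wnt4, Vps8, Meox1, Iqcf6, Plxna2, Cybrd1, Fgg, Nmur2, Nxph3 and Gpat3. The first, 54.9 kb from the clathrin adaptor gene Ap1s3 (chr1:79551714-79551959), was only 246 bp wide and had folds of 6.92 in Control 1 and 5.91 in Control 2, with a Snf5 CKO peak 3.81 kb away. Another lay 10.9 kb from Prlhr, a neuropeptide receptor gene whose ends were open in both Control libraries only, and had a width of 1020 bp and folds of 5.21 and 6.15. Tmprss2, a membrane protease gene, had a member at 20.6 kb with folds of 5.71 and 5.65 and no Snf5 CKO peak within 30.5 kb. A member 493 kb from Mki67, a gene of proliferating cells, had folds of 5.13 and 5.15. Even the twentieth, 18.3 kb from the lipid synthesis gene Gpat3, had folds of 5.22 and 4.96.

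The extremes of distance and width were as follows. Farthest from any protein-coding gene were members 1004 kb from Cdh7, 827 kb from Adgrl4 and 782 kb from Gm36448. Their folds were 3.81, 4.37 and 4.27 in Control 1 and 3.24, 3.99 and 3.30 in Control 2. The Gm36448 member overlapped a V segment, a gene type not counted as protein-coding here. Just inside the 1 kb limit lay those at 1005 bp from Sh2d6, 1006 bp from Elobl and 1036 bp from Mrto4, with Control folds of 2.70 to 3.90. Just outside it lay lost regions 955 bp from Bglap2, 949 bp from Gipc2 and 925 bp from Sall1, with folds of 3.07 to 4.75. After Plxna2 and Gata5, the widest members were next to Ube2q1 (1409 bp), Parp1 (1405 bp) and B3glct (1402 bp), and B3glct had a Snf5 CKO peak 0.841 kb away. On the limit of calling, the weakest members were next to Gm5800, Atoh8 and B230307C23Rik with a −log10 q of 1.06, 1.09 and 1.09 in the weaker Control library. Regions next to Gm46390, H2-M10.1 and Rnf19a just missed membership through a Snf5 CKO peak with a −log10 q of 1.05.

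Nearest genes were read against 15 gene lists. For each list the text gives the genes nearest to a member out of candidates, the list genes nearest to any intergenic region with a peak in both Control libraries, for which the share over all genes was 31.8%. A gene can be nearest to lost, gained and kept regions at once, and 2857 of all 4339 candidates were nearest to a kept one. Gained regions have no Control peak, so a gene nearest to one need not be a candidate. Counts for gained and kept regions are therefore set against all genes of a list on these chromosomes. Of all 20665 genes, 1440 were nearest to a gained region and 2857 to a kept one. A gene with more intergenic peaks has more chances to be nearest to a lost one, and the shares were not adjusted for this. Being the nearest gene is a position and not a regulatory link. The lists of the meiotic machinery had almost no candidates. Of 16 synaptonemal complex and cohesin genes none was a candidate. Of 33 recombination genes 3 were, and Hfm1, a DNA helicase gene of crossover formation, was nearest to 2 members with folds of 3.55 in Control 1 and 3.42 in Control 2 at 56.7 kb and of 2.67 and 2.63 at 14.1 kb. Of 23 germline genome defence genes 2 were candidates and neither was nearest to a member.

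Meiotic entry and its regulators had 6 of 15 candidates nearest to a member. Of all 38 genes of the list, 6 were nearest to a gained and 10 to a kept region. Those nearest to a member were the retinoic acid receptor genes Rara and Rarg, the BMP-responsive genes Id1 and Id2, and E2f6 and Pcgf6. The products of E2f6 and Pcgf6 sit in a Polycomb complex that represses germline genes in embryonic stem cells. Id2 had 2 members, at 144 and 9.44 kb. Id1 had the highest weaker-Control fold, 3.70 in Control 1 and 3.63 in Control 2 at 11.6 kb. The Rara member at 1.47 kb had folds of 3.11 and 2.62, and the Rarg member at 5.88 kb had 2.94 and 2.62. Rarg gene ends were open in both Control libraries only. For oocyte growth, 2 of 5 candidates were nearest to a member, the oocyte transcription factor gene Figla at 12.6 kb, with folds of 4.15 and 3.51, and the maternal effect gene Tle6 at 3.93 kb, with 3.67 and 3.44. Both lay close to a Snf5 CKO peak, at 0.273 and 0.590 kb.

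Pluripotency and primordial germ cell genes had 7 of 14 candidates nearest to a member (50.0%). Of all 31 genes of this list, 12 were nearest to a gained region and 8 to a kept one. Sox2 had 4 members, and Klf5 and Prdm14 had 2 each. Fgf4, a growth factor gene of pluripotent cells, had the best-called one, at 5.81 kb with folds of 4.22 in Control 1 and 4.36 in Control 2 and −log10 q of 10.3 and 7.39. Kit, the receptor for stem cell factor, had a member of 1081 bp at 124 kb with folds of 3.57 and 3.49. Nanos3, an RNA-binding protein gene of germ cells, had one at 15.7 kb with 3.44 and 3.28. Prdm1, a repressor gene that specifies primordial germ cells, had one at 26.7 kb with 3.29 and 3.38. Prdm14 members at 36.6 and 8.09 kb stood 1.02 and 3.16 kb from a Snf5 CKO peak.

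Lists of other cell types of the ovary stood higher than the share over all genes, without adjustment for the number of peaks near each gene. Supporting cell genes had 6 of 11 candidates nearest to a member (54.5%), stromal genes 10 of 18 (55.6%), and endothelial and blood genes 7 of 10 (70.0%). Gained regions were nearest to 4 of all 21 supporting cell genes, 9 of 28 stromal genes and 2 of 22 endothelial and blood genes. Kept regions were nearest to 6, 14 and 7 genes of these lists. Wnt4, which promotes ovarian over testicular fate, had 2 members, at 113 kb with folds of 5.13 in Control 1 and 5.56 in Control 2 and at 59.9 kb with 4.55 and 3.49. The supporting cell list also held Emx2 and single members at Dmrt1, Gata6, Runx1 and Irx5. Dmrt1, known in testis and germ cells, had folds of 4.41 and 3.65 at 18.4 kb, and a Snf5 CKO peak lay 0.205 kb away.

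Stromal genes nearest to members included Gli2, Tcf21, Hand2, Twist1, Meis1, Nr2f1, Nr2f2 and Osr2. Nr2f2, an orphan nuclear receptor gene of mesenchyme, had 3 members at 3.15 to 70.8 kb with folds of 2.5 to 3.19 in Control 1 and 2.75 to 3.19 in Control 2. Endothelial genes nearest to members were Erg, Flt1, Gata2, Kdr, Pecam1, Cdh5 and Sox17. Erg, an ETS factor gene, had folds of 4.35 and 5.35 at 14.0 kb, and Flt1, a VEGF receptor gene, had 2 members, of which the one at 7.31 kb had 4.74 and 4.25. Beside these counts stand the marker values: peaks at 3 and 1 of 5 stromal marker ends in Snf5 CKO 1 and 2, against 4 and 4 in the Control libraries, and at 1 and 1 of 4 endothelial marker ends, against 2 and 2. The stromal markers Nr2f2 and Tcf21 and the endothelial markers Cdh5, Pecam1 and Kdr are also list genes nearest to members. The marker values and list counts are thus not independent, and the part of these cells in the result was not tested.

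**Figure D5:**
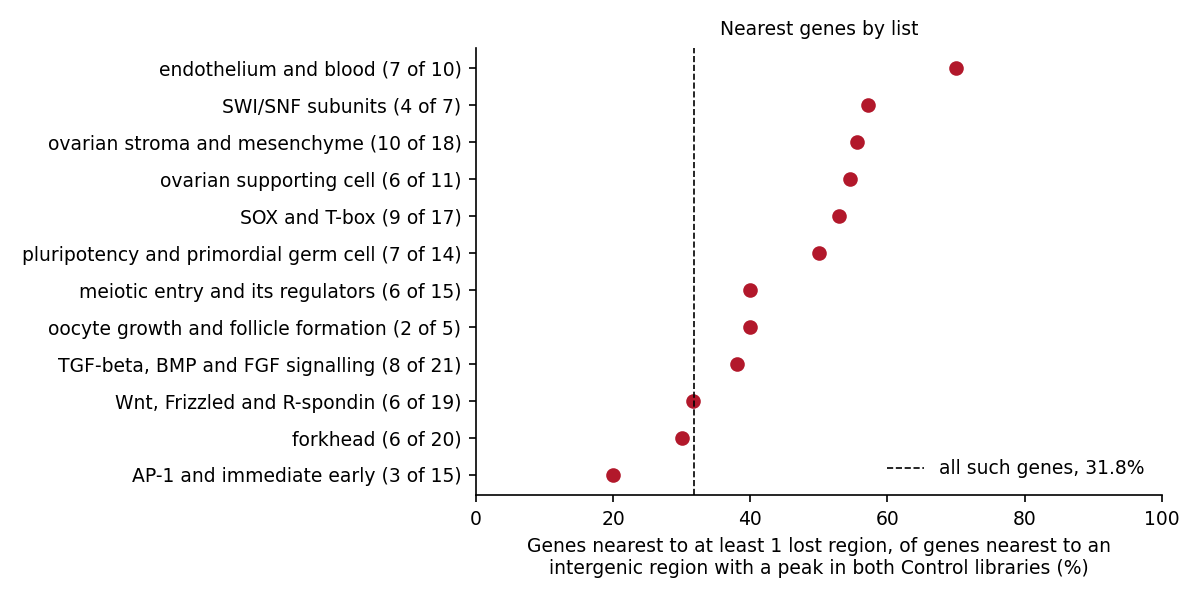
Percentage of candidate genes nearest to at least 1 lost intergenic region for each list with at least 5 candidates, with counts beside each name. The dashed line is the share over all 4339 such genes, 31.8%. Shares ran from 3 of 15 (AP-1 and immediate early) to 70.0% (endothelium and blood), and the smallest lists rest on under 10 genes.

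Transcription factor families split. SOX and T-box genes had 9 of 17 candidates nearest to a member (52.9%), forkhead genes 6 of 20 (30.0%), and AP-1 and immediate early genes 3 of 15. These lists hold 33, 41 and 24 genes in all. Gained regions were nearest to 4, 5 and 3 of them and kept regions to 13, 15 and 13. Besides Sox2, Sox1, Sox4 and Sox21 had 2 members each and Sox6, Sox13, Sox14, Sox17 and Tbx4 had 1. The Sox6 member at 126 kb had folds of 5.18 in Control 1 and 3.91 in Control 2, and both Sox1 members were faint, with folds of 2.02 to 2.46. In the forkhead list, Foxo6 had folds of 4.84 and 4.83 at 23.4 kb, Foxl1 6.24 and 4.53 at 82.7 kb, Foxb1 5.55 and 4.07 at 28.4 kb and Foxd3 4.96 and 3.98 at 82.8 kb. Foxa2 and Foxn2 had 3 members each, with folds of 2.45 to 4.09. Genes of AP-1, a factor often found at enhancers, were represented by Atf3 with 4.70 and 4.32 at 18.9 kb and Fosl2 with 2.62 and 2.31, and the immediate early gene Ier2 had 3.04 and 2.95.

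Signalling lists stood near the share over all genes. Wnt, Frizzled and R-spondin genes had 6 of 19 candidates nearest to a member (31.6%), and TGF-β, BMP and FGF genes 8 of 21 (38.1%). Of the 40 and 53 genes in these lists, gained regions were nearest to 7 and 3 and kept regions to 11 and 14. Among the ligands, Wnt8b had folds of 4.41 in Control 1 and 4.80 in Control 2, Wnt7b 4.32 and 4.20, Bmp4 3.68 and 4.49 at 7.22 kb and Inhbb, an activin subunit gene, 4.10 and 3.66 at 21.4 kb. Bmp4 and Wnt8b had no gene-end peak in any library. Bmp7 had 3 members with folds of 3.04 to 3.76 in Control 1. Of the receptors, Lgr5, a receptor for R-spondins, had 2 members, with 4.63 and 5.32 at 76.7 kb and 4.38 and 3.83 at 30.6 kb. Fzd10, a Wnt receptor gene, had 4.35 and 4.21, Fgfr2, an FGF receptor gene, 5.41 and 4.45 at 6.34 kb, and Acvr1b, an activin receptor gene, 2.54 and 3.26. The secreted Wnt inhibitor gene Dkk4 had 2 members at 6.56 and 2.92 kb. The intracellular transducer Smad2 had 3.41 and 3.71, and the inhibitory Smad6 had 3.21 and 3.24.

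Genes for SWI/SNF subunits had 4 of 7 candidates nearest to a member (57.1%). Of all 28 genes of the list, 1 was nearest to a gained and 4 to a kept region. Smarce1 had folds of 5.14 in Control 1 and 4.02 in Control 2 at 19.4 kb, with no Snf5 CKO peak within 40.5 kb. Arid1b had 3 members at 11 to 140 kb with folds of 3.41 to 3.85 in Control 1 and 2.90 to 3.47 in Control 2. Ss18 had 3.42 and 4.20 at 312 kb, and Bcl7c had 3.66 and 3.80 at 4.17 kb. The ends of all 4 genes carried a peak in every library.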

How the data were processed

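Chromatin accessibility was measured by ATAC-seq in 2 Snf5 CKO and 2 Control libraries, grouped and numbered as the labels give them. Per the submitters' processing notes, the tools were MACS2 2.2.7.1, Picard 2.25.2, SAMtools 1.10, Bowtie2 2.4.2 and Trim Galore 0.6.5, without their roles, for 50 bp reads on mm10. Thresholds of peak calling, removal of duplicates and a shift for the transposase are not recorded in the labels. The authors deposited 1 list of broad peaks per library, called separately. Each deposited peak has a score, the −log10 q times 10 without its decimals. The deposited fold enrichment, −log10 p and −log10 q are the authors' peak caller's own, and were used to describe peaks or to rank and filter them inside 1 list, the −log10 p not at all. Lists differed in length and no counts were used, so depth and its precision are unknown. Intervals are exact and cover counting error only.

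Merging, places, distances and clusters were computed with Python 3.11.15, pandas 2.3.3, NumPy 2.4.6 and SciPy 1.17.1 on 1-based coordinates, tested on simulated peaks, and drawn with Matplotlib 3.10.9. Genes came from the RefSeq table of GRCm38.p6, with 20665 protein-coding genes on chromosomes 1 to 19. That table gives no strand, so sides of genes came from RefSeq promoter windows. Where a region has several peaks of 1 library, the highest fold was taken. "Every gene" of the rule was read as every protein-coding gene. Members of the set and the gene lists were chosen with earlier results of these data known. Named regions are the 20 highest in weaker-Control fold, clusters and genes with at least 4 members, the extremes of distance, width and calling limit, and up to 6 genes a list. Region sequences were not used here. Alternatives to the presence limit, list length, merging, gene distance, gene type, chromosomes, cluster gap and libraries were run. Values for a few single genes that these rules pick out are not reported here.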

Additional observations from a re-analysis of the deposited data

How the results depend on the processing

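No paired analysis was possible because the results come from no test. Counting only peaks with −log10 q of 3 or more left 1002 lost intergenic regions in place of 1692, made 32.3% of lost regions intergenic in place of 34.6%, and gave a median width of 605.5 bp, a median weaker-Control fold of 3.88 and 25.9% of members in clusters. Requiring it for Control peaks alone left 584, or 2.2% of intergenic regions, with 36.1% of lost regions intergenic, a fold of 3.89 and 18.8% in clusters. Counting genes of any type left 1125, or 5.66%, with 23.0% of lost regions intergenic, a median distance of 9.22 kb and 30.6% in clusters, since regions in lncRNA genes then drop out. Cutting every list to the 26900 strongest peaks left 1045, with a fold of 3.81 and 26.6% in clusters. A limit of 0 kb from gene ends gave 36.1% of lost regions intergenic and a limit of 5 kb 29.8%, with a median distance of 23.6 kb and a fold of 3.37. Pairing Control peaks by 50% overlap gave a fold of 3.35, and no share of intergenic regions, since nothing is merged. Cluster gaps of 50 and 200 kb put 29.5% and 56.4% of members in clusters. Leaving out 1 library at a time gave 1876 to 5358 members, 7.45% to 21.9% of intergenic regions, 34.6% to 37.6% of lost regions intergenic, median distances of 18.7 to 24 kb, widths of 299 to 537 bp, folds of 3.34 to 3.43 and 44.5% to 67.5% in clusters. Without Control 1 or Control 2 a single Control peak is enough. The higher share lost up to 50 kb than beyond was found in each of the 8 alternatives it was run under, by 10.1 to 18.9 percentage points. Members nearest to the 16 genes with 4 or more, 73 in all, numbered 4 with genes of any type, where 13 of the 16 genes, among them Ajap1, Zfp516, Ctnnb1 and Sox2, had 0, since regions in noncoding genes drop out and a noncoding gene can be the nearest. They numbered 25 with −log10 q of 3 or more asked of Control peaks alone, 34 when asked of every peak and 38 when all lists were cut to equal length. Under these 3 settings Emx2 had 1, 1 and 2, Ctnnb1 1, 2 and 1, and Sox2 2, 3 and 3. Under the 5 other alternatives that keep all libraries they numbered 70 to 73. Depth, which is unknown, limits what absence of a peak means.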

Other observations

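The X chromosome, outside the rule, had a lower share of loss than any autosome. Of 480 intergenic regions there with a peak in both Control libraries, 42 were lost (8.75%, 95% Clopper-Pearson interval 6.38 to 11.6) and 384 kept. Apart from these, 156 intergenic regions of the X were gained. The lost ones lay a median of 21.4 kb from a protein-coding gene. The cause was not tested.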
